A study of Mus musculus with 6 samples.

Results

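The histone-modifying enzymes examined here were the genes whose mouse symbol starts with Kdm, Kmt, Hdac, Sirt, Kat, Ezh or Setd followed by a digit, with Kdm5c, Kdm5d and Kdm6a left out by rule. 64 of the 55471 genes in the table met this rule. 59 of them were protein-coding and 5 were not: the pseudogenes Kat2b-ps, Kat6b-ps1, Kat6b-ps2 and Kdm4dl, and the antisense transcript Kdm6bos. By family name there were 18 lysine methyltransferases (Kmt, Setd, Ezh), 17 lysine demethylases (Kdm), 11 acetyltransferases (Kat), 11 zinc-dependent deacetylases (Hdac) and 7 sirtuins (Sirt). The comparison asked whether the transcripts of these enzymes differed between osteoblasts with and without TET proteins, the dioxygenases that start the removal of methyl groups from cytosine.

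Polyadenylated RNA was sequenced from primary osteoblasts of the parietal bone of the skull, taken from 3-day-old C57BL/6 mice and cultured for 3 days. The 3 wild-type (WT) libraries were compared with 3 libraries of triple conditional knockout (TCKO) cells, which carried Prx1-Cre and were fl/fl for Tet1, Tet2 and Tet3. The WT mice are labelled wild type. Prx1-Cre is active in mesenchymal progenitors of the limb and part of the skull, so that cells of other origin in the same culture keep their Tet genes. The number of mice behind each library is not given in the sources used here, and p-values measure only the spread between these libraries.

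Histone-modifying enzymes write and erase acetyl and methyl groups on histone tails. Acetyltransferases and most lysine 4 methyltransferases of histone H3 are linked to active genes, whereas deacetylases and the Polycomb enzymes Ezh1 and Ezh2, which methylate lysine 27 of histone H3 (H3K27), are linked to repression. In bone, Ezh2 and several deacetylases are known as brakes on osteoblast differentiation, Hdac4 as a brake on chondrocyte hypertrophy, and Kdm6b, an H3K27 demethylase, as a promoter of osteoblast differentiation.

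Library totals ranged from 8019999 to 10177214 counts, and 3 counts corresponded to 0.299 to 0.373 CPM, counts scaled to library size. Replicate 3 of both genotypes stood apart: the biological coefficient of variation was 3.00% between WT replicates 1 and 2 and 3.62% between TCKO replicates 1 and 2, but 16.4% to 18.4% in pairs with replicate 3. Mitochondrial transcripts made up 2.22% and 2.47% of counts in the replicate 3 libraries and 1.11% to 1.24% in the others, and TCKO replicate 3 alone carried the Xist transcript (4583 counts, against 1 to 4) and no Ddx3y counts. Of the targeted genes, Tet1 was lower in the libraries labelled TCKO (log2 fold change -0.97 ± 0.16 SE, edgeR quasi-likelihood adjusted p = 0.00648), Tet2 did not pass the test (-0.14 ± 0.14, edgeR adjusted p = 0.545) and Tet3 was higher (0.51 ± 0.09, edgeR adjusted p = 0.00745), against the label. These counts are over whole genes, and the deleted exons are not given in the sources used here, so they do not check the deletion. WT and TCKO below mean the libraries so labelled. Of 7 tested osteoblast markers 4 were lower in TCKO, with a summed level of 38991 to 42701 CPM in WT and 18948 to 27739 CPM in TCKO, and the mature osteoblast marker Bglap was at or near 0 in all libraries. All 5 chondrocyte markers were lower in TCKO, with a summed level of 6168 to 8038 CPM in WT and 679 to 956 CPM in TCKO. Summed haematopoietic markers were 411 to 748 CPM in WT and 163 to 563 CPM in TCKO, summed muscle markers 9.38 to 28.7 and 35.4 to 85.3 CPM, and over all libraries summed endothelial markers were 1.03 to 2.49 CPM, keratinocyte markers 2.61 to 4.49 CPM and neuron and Schwann cell markers 61.0 to 84.3 CPM. In these bulk samples, fewer cells of a type and less RNA per cell cannot be told apart.

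Most of the enzymes were transcribed in WT osteoblasts, over a wide range of levels. Per length of exon, in reads per kilobase of exon scaled to library size (RPKM), the median of the 59 enzymes that passed the low-count filter was 5.22 in WT. The length is the summed exon length of each gene, so rankings between genes depend on it. The demethylase Kdm4a, which acts on methylated H3 lysine 9 and lysine 36, was the highest at 26.6 ± 1.09 RPKM (SD, n = 3). The methyltransferase Setd7 followed at 20.5 RPKM, the acetyltransferase Kat2a, the catalytic subunit of the SAGA complex, at 20.5 RPKM, the class I deacetylase Hdac2 at 17.8 RPKM and the mainly cytoplasmic sirtuin Sirt2 at 12.5 RPKM, each the highest of its class on the mean of all libraries. The class IIa deacetylase Hdac9 was the lowest tested enzyme at 0.138 RPKM. The class medians were close to each other, from 4.0 RPKM in the sirtuins to 6.19 RPKM in the zinc-dependent deacetylases. The 5 genes removed by the filter were Kat6b-ps1, Kat6b-ps2, Kdm4d, Kdm4dl and Kdm6bos. Kat6b-ps2 and Kdm4dl had 0 counts in every library, and Kat6b-ps1 had 1 count in WT replicate 2. The WT counts of Kdm4d were 5, 4 and 8 and its TCKO counts 5, 0 and 0. For Kdm6bos they were 3, 1 and 6 in WT, with 5, 3 and 8 in TCKO. These levels are near the floor of 3 counts.

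Differences between TCKO and WT were small. In TCKO, 5 of the 59 tested enzymes were higher (Ezh2, Kdm6b, Kdm3a, Kmt5a and Hdac2) and 4 were lower (Kdm1b, Ezh1, Hdac4 and Kdm4a) at an edgeR adjusted p under 0.05, against 9.07% of all 13826 tested genes called higher and 8.63% called lower. The other 50 did not pass the test. No enzyme passed with a change over 2-fold, a call made for 6.35% of tested genes, although Hdac9 did so with a replicate block or without TCKO replicate 3 (edgeR adjusted p of 0.0268 and 0.0321, over a range of 0.0105 to 0.389). At an unadjusted p under 0.05, 10 enzymes were higher and 6 lower. The share of all tested genes at this unadjusted threshold is not given here, so these counts cannot be set against the background. 56 of the 59, or 94.9%, differed by less than 1.5-fold, compared with 81.7% of all tested genes. The median size of the log2 difference was 0.15 for the enzymes and 0.22 for all tested genes. These sets were not matched for expression level. The signed median of the enzymes was 0.04, with 35 positive and 24 negative values. The levels of the genotypes did not overlap for 19 enzymes: TCKO lay above WT in 11, where 19.4% of tested genes did so, and below in 8, where 18.9% did so. The share of the enzymes called was thus near the background in both directions.

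**Figure D1:**
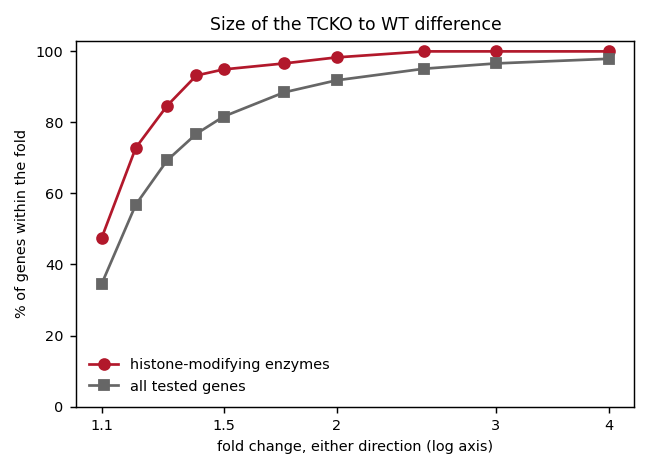
The share of genes (vertical axis, %) whose TCKO to WT difference lay within a given fold in either direction (horizontal log axis), for the 59 tested histone-modifying enzymes (red circles) and all 13826 tested genes (grey squares). Within 1.2-fold lay 72.9% of the enzymes and 56.9% of all tested genes, and the sets were not matched for expression level.

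The calls depended on how the libraries were weighed. With the near-identical replicates 1 and 2 of each genotype summed into 1 sample, 0 of the 9 calls were kept in edgeR, with 6 enzymes higher and 3 lower at an unadjusted p under 0.05. No share over all tested genes is given for these unadjusted counts. With the replicate number as a block, 8 enzymes were higher, where 12.0% of tested genes were, and 4 lower, where 11.5% were. Only Kdm6b and Ezh2 passed in all 6 fits that left out 1 library. The higher calls fell to 2 without WT replicate 1, WT replicate 2 or TCKO replicate 2 and to 3 without TCKO replicate 1, and the lower calls fell to 0 when any single 1 of these 4 libraries was left out and to 2 without TCKO replicate 3. All 9 enzymes differed in the same direction in replicates 1 and 2 as in replicate 3. This adds no support, because none of the 9 overlapped between genotypes, which fixes the shared direction.

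**Figure D2:**
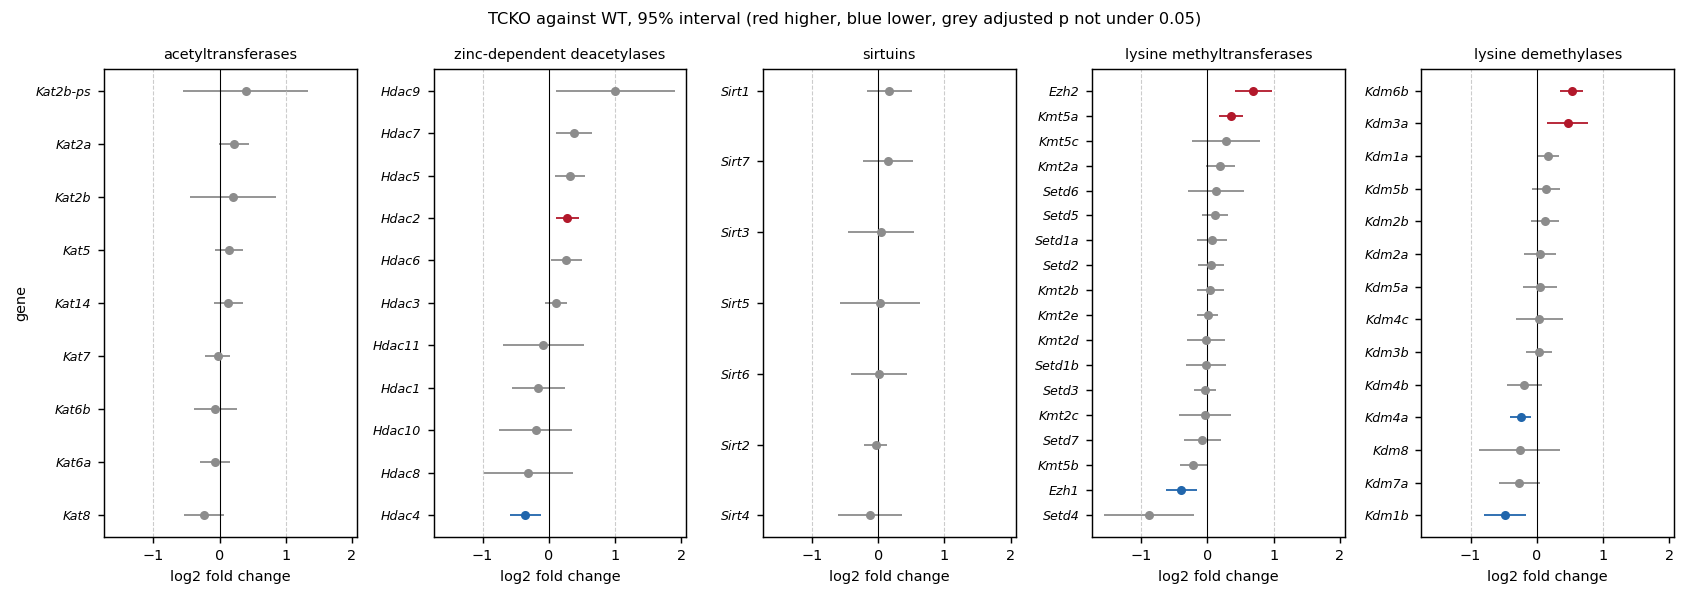
The log2 fold change of TCKO against WT (horizontal axis) with its 95% interval for the 59 tested enzymes, by class, in red where higher and in blue where lower at an edgeR adjusted p under 0.05 and in grey otherwise. Every point lies between -0.88 (Setd4) and 1.0 (Hdac9), and the sirtuins and acetyltransferases hold no called gene.

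Of Ezh2, Ezh1 and Kdm6b, which act on H3K27, Ezh2 and Kdm6b were higher and Ezh1 was lower. Ezh2 passed in 16 of 18 alternatives and Ezh1 in 8. Ezh2, the Polycomb methyltransferase of dividing cells, was measured at 9.93, 10.2 and 10.3 CPM in the WT libraries and at 17.6, 14.9 and 16.7 CPM in the TCKO libraries. Every TCKO library was above every WT library, and WT replicates lay within a narrow range. The difference was 1.62-fold (log2 0.69 ± 0.12 SE, edgeR adjusted p = 0.00802), on raw counts of 82, 102 and 85 in WT and 154, 120 and 149 in TCKO. Its adjusted p reached 0.0420 without WT replicate 1 and 0.112 with replicates 1 and 2 summed, over a range from 0.00266 in 18 alternatives. Ezh1, the paralogue that predominates in resting cells, was at 28.6, 27.4 and 27.2 CPM in WT and at 21.0, 23.1 and 19.2 CPM in TCKO. Here every TCKO library was below every WT library. Ezh1 was lower by a log2 difference of -0.39 ± 0.10 (SE, edgeR adjusted p = 0.0347). It passed without WT replicate 3 (edgeR adjusted p = 0.0406) but not without WT replicate 1 (0.128), WT replicate 2 (0.107), TCKO replicate 1 (0.111), TCKO replicate 2 (0.0544) or TCKO replicate 3 (0.0621), and its range over all alternatives was 0.0104 to 0.225.

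Per summed exon length, Ezh2 stood below Ezh1 in WT and near it in TCKO. This ranking depends on the lengths used, 6678 bases for Ezh2 and 7440 for Ezh1, whereas the difference between genotypes does not. The ratio of Ezh2 to Ezh1 RPKM was 0.387, 0.413 and 0.423 in the WT libraries and 0.933, 0.719 and 0.971 in the TCKO libraries. The ratios of the genotypes did not overlap, which the separation of both genes in opposite directions makes certain. The log2 ratio differed by 1.09, by 1.03 in replicates 1 and 2 and by 1.2 in replicate 3.

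Kdm6b, a demethylase of the same mark, was at 71.8, 73.0 and 65.7 CPM in WT and at 106.5, 98.2 and 99.3 CPM in TCKO. The genotypes were well separated, with all TCKO libraries high. Kdm6b was 1.44-fold higher (log2 0.53 ± 0.08 SE, edgeR adjusted p = 0.00337), with adjusted p values from 3.14e-05 in DESeq2 to 0.0777 with replicates 1 and 2 summed, and passed in 17 of 18 alternatives. The antisense transcript Kdm6bos shares 286 bases with Kdm6b exons and had 26 counts over all libraries, against 4475 for Kdm6b. The demethylase Kdm7a had a negative log2 difference and did not pass the test (-0.26, edgeR adjusted p = 0.232).

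The promoters of the Polycomb pair are shown because cytosines followed by guanine (CpG) are the substrate of DNA methylation and of the TET enzymes. The windows run from 250 bases before to 50 bases after the RefSeq start on GRCm38.p6, 5′ to 3′, with each CpG in capitals. The Ezh2 window lies at chr6:47594981-47595280 and the Ezh1 window at chr11:101226414-101226713, both on the minus strand.
Ezh2: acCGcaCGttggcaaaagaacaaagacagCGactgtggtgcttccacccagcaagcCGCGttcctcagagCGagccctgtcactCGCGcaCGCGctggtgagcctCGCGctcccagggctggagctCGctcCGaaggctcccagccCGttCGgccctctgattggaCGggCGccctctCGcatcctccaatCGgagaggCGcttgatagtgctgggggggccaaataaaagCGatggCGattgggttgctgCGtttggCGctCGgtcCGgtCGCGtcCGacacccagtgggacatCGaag
Ezh1: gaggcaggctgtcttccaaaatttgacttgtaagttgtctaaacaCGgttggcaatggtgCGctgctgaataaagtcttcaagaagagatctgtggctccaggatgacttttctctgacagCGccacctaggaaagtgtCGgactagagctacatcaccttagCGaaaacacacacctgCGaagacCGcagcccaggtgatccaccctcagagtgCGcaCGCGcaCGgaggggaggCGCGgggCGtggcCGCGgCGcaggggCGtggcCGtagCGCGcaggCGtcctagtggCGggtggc
The Ezh2 window holds 31 CpG and the Ezh1 window 23. Of the 64 members, 47 matched a window in the RefSeq table, and 44 of these, or 93.6%, held 10 or more CpG in their most CpG-rich window, as did 87.5% of the 9824 tested genes with a window and 45.8% of all 27025 RefSeq genes. DNA methylation of these windows was not analysed here.

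**Figure D3:**
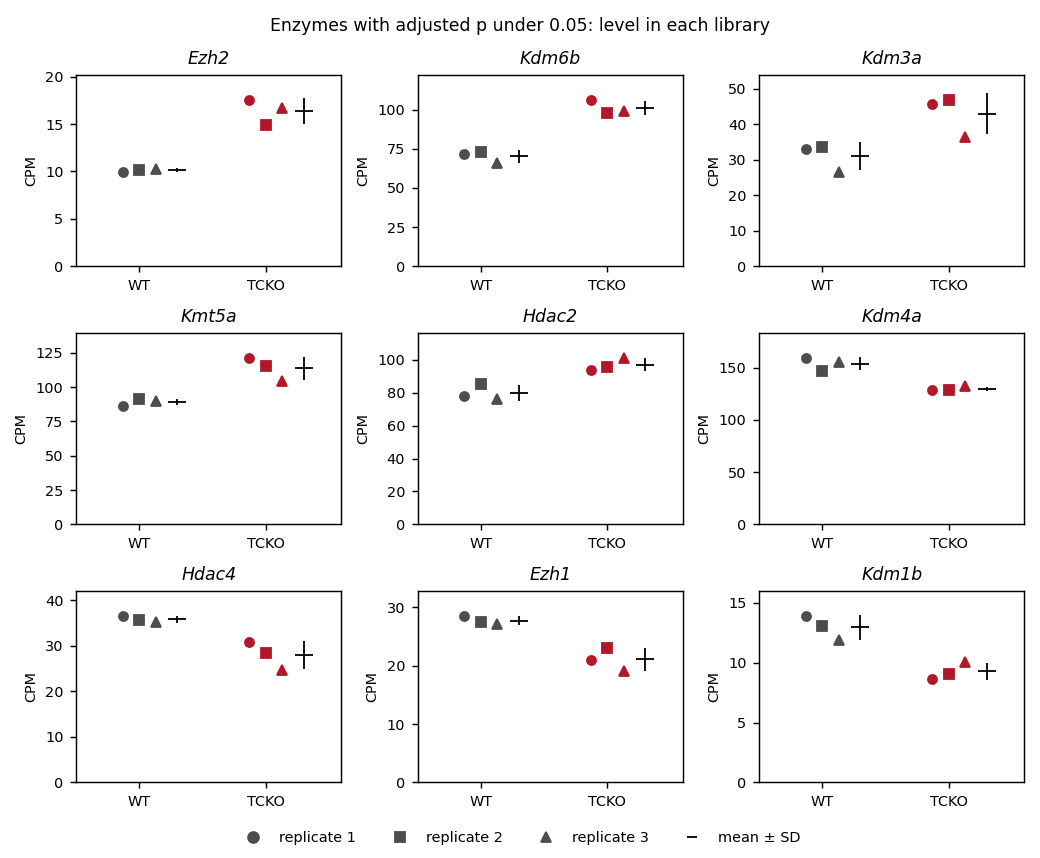
The level in each library (vertical axis, CPM, from 0) of the 9 enzymes with an edgeR adjusted p under 0.05, with WT in grey, TCKO in red, 1 symbol per replicate number and the mean with its SD (n = 3) as a black cross. The WT and TCKO points do not overlap in any panel, and Ezh2 lies at 9.93 to 10.3 CPM in WT and 14.9 to 17.6 CPM in TCKO.

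Of the other lysine methyltransferases, 1 passed the test. Kmt5a, which adds the single methyl group to lysine 20 of histone H4 and is known for its role in the cell cycle, was at 86.4, 91.3 and 89.8 CPM in WT and at 121.5, 115.1 and 104.4 CPM in TCKO. No WT library reached the TCKO range. Kmt5a was 1.27-fold higher (log2 0.35 ± 0.08 SE, edgeR adjusted p = 0.0208). The call was lost without WT replicate 1 (edgeR adjusted p = 0.0931), WT replicate 2 (0.0713), TCKO replicate 1 (0.0855) or TCKO replicate 2 (0.0806), over a range of 0.00507 to 0.239 in all alternatives. Kmt5b and Kmt5c, which add further methyl groups to the same residue, had log2 differences of -0.22 (95% interval -0.42 to -0.01) and 0.28 (-0.23 to 0.80) and did not pass the test. Kmt5b passed in 2 of 18 alternatives. Of the 7 enzymes that methylate H3 lysine 4 or belong to that family by name (Kmt2a to Kmt2e, Setd1a and Setd1b), none passed, with log2 differences from -0.04 for Kmt2c to 0.19 for Kmt2a. The counts of Setd1a and Kmt2e are less certain. Setd1a shares 51.8% of its exon bases with Gm49388 on the same strand, and Kmt2e 9.31% with the oppositely transcribed Srpk2. Setd2, which trimethylates H3 lysine 36, differed by 0.06 (95% interval -0.14 to 0.25), and Setd7 by -0.08 (-0.35 to 0.20). Setd4 had the largest negative difference of all enzymes. It was rare, with counts of 29, 38 and 50 in WT against 23, 15 and 24 in TCKO, and its log2 difference of -0.88 did not pass (edgeR adjusted p = 0.0793), but it passed with the replicate block (0.0477, over a range of 0.0217 to 0.262) and not with the block on summed replicates 1 and 2 (0.135).

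Among the demethylases, both directions occurred. Kdm3a, which removes methyl groups from H3 lysine 9, was at 33.1, 33.6 and 26.7 CPM in WT and at 45.7, 47.0 and 36.3 CPM in TCKO. Replicate 3 was the low library in each genotype, and the ranges did not overlap. Kdm3a was 1.38-fold higher (log2 0.46 ± 0.13 SE), with an edgeR adjusted p of 0.0489 that fell to 0.00620 with the replicate block. It passed without TCKO replicate 3 (edgeR adjusted p = 0.0118) but not without WT replicates 1, 2 or 3 (0.108, 0.0960 and 0.0818) or TCKO replicates 1 or 2 (0.151 and 0.156), over a range of 0.00114 to 0.271. Its paralogue Kdm3b did not pass the test (log2 0.03, 95% interval -0.17 to 0.22), and the log2 ratio of Kdm3b to Kdm3a RPKM went from 0.35, 0.30 and 0.43 in WT to -0.12, -0.22 and 0.12 in TCKO.

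Kdm4a, the most abundant enzyme per length, was at 159.7, 147.3 and 155.2 CPM in WT and at 129.0, 128.9 and 132.2 CPM in TCKO. The TCKO libraries lay close together below all WT libraries. The difference was small (log2 -0.24 ± 0.07 SE, edgeR adjusted p = 0.0402) and did not pass without WT replicate 1 (0.158), WT replicate 2 (0.0832), TCKO replicate 1 (0.135) or TCKO replicate 2 (0.137), over a range of 0.0141 to 0.316. Kdm4b and Kdm4c, which share its substrates, had log2 differences of -0.19 (95% interval -0.45 to 0.07) and 0.04 (-0.31 to 0.39).

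Kdm1b, one of the flavin-dependent demethylases of H3 lysine 4, was at 13.9, 13.1 and 11.9 CPM in WT and at 8.68, 9.07 and 10.1 CPM in TCKO. The genotypes did not overlap, but replicate 3 came closest. Kdm1b was lower by a log2 difference of -0.48 ± 0.14 (SE, edgeR adjusted p = 0.0468), and the call was lost with the replicate block (0.0566, over a range of 0.0253 to 0.329). It was also lost without WT replicates 1 or 2 (edgeR adjusted p of 0.169 and 0.146) and without TCKO replicates 1 or 2 (0.148 and 0.137). Its count is less certain because 505 bases of its exons, or 9.19%, overlap the oppositely transcribed gene Dek, which had 2779 counts in all. Its paralogue Kdm1a had a log2 difference of 0.17 (95% interval 0.00 to 0.33) and did not pass (edgeR adjusted p = 0.153). The log2 ratio of Kdm1b to Kdm1a was -1.75, -1.88 and -1.91 in WT and -2.61, -2.53 and -2.35 in TCKO. The H3 lysine 4 demethylases Kdm5a and Kdm5b differed by 0.05 and 0.14 and the H3 lysine 36 demethylases Kdm2a and Kdm2b by 0.05 and 0.12 on the log2 scale, and none of these passed.

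Among the zinc-dependent deacetylases, Hdac2 was higher and Hdac4 lower. Hdac2, a nuclear class I enzyme of the Sin3, NuRD and CoREST complexes, was at 78.0, 85.1 and 76.1 CPM in WT and at 94.0, 95.6 and 101.3 CPM in TCKO. The ranges did not overlap. The difference (log2 0.28 ± 0.08 SE, edgeR adjusted p = 0.0387) did not pass in any of the 6 fits that left out 1 library: without WT replicates 1, 2 and 3 the edgeR adjusted p was 0.143, 0.0641 and 0.0581, and without TCKO replicates 1, 2 and 3 it was 0.0900, 0.107 and 0.0535, over a range of 0.0159 to 0.233. Its partner in the same complexes, Hdac1, had a log2 difference of -0.16 (95% interval -0.56 to 0.24), positive in replicates 1 and 2 (0.11) and negative in replicate 3 (-0.63).

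Hdac4, a class IIa enzyme that shuttles between cytoplasm and nucleus and binds Runx2 and Mef2 factors, was at 36.6, 35.6 and 35.1 CPM in WT and at 30.7, 28.5 and 24.6 CPM in TCKO. All TCKO libraries were below WT, and replicate 3 was the lowest. The log2 difference was -0.36 ± 0.10 (SE, edgeR adjusted p = 0.0468), and no fit that left out 1 library passed: 0.151, 0.136 and 0.0564 without WT replicates 1, 2 and 3, and 0.0585, 0.118 and 0.0738 without TCKO replicates 1, 2 and 3, over a range of 0.0116 to 0.244. The other class IIa enzymes Hdac5, Hdac7 and Hdac9 had positive log2 differences of 0.32, 0.38 and 1.0 and did not pass (edgeR adjusted p of 0.0617, 0.0591 and 0.118). With the replicate block they passed, at 0.0313, 0.0253 and 0.0268, over ranges of 0.00960 to 0.291, 0.00675 to 0.236 and 0.0105 to 0.389, but not with the block on summed replicates 1 and 2 (edgeR adjusted p of 0.136, 0.0924 and 0.118). These 3 enzymes and Setd4 were singled out after their values were seen. In DESeq2, Hdac7 passed (DESeq2 adjusted p = 0.0401). Hdac2 (0.0540), Hdac4 (0.0837), Hdac5 (0.0722) and Hdac9 (0.129) did not pass in DESeq2. Hdac9 was rare, with counts of 20, 25 and 10 in WT against 49, 35 and 22 in TCKO, so that the genotypes overlapped. Hdac7 shares 29 exon bases with the oppositely transcribed and more highly counted Slc48a1, which makes its count less certain. The log2 ratio of Hdac5 to Hdac4 RPKM was 1.83, 1.71 and 1.66 in WT and 2.29, 2.52 and 2.45 in TCKO. The remaining deacetylases were Hdac3, the catalytic subunit of the NCoR complexes, at 0.11 (95% interval -0.06 to 0.27), the tubulin deacetylase Hdac6 at 0.27 (0.04 to 0.50, edgeR adjusted p = 0.108), and Hdac8, Hdac10 and Hdac11, whose intervals spanned 0. Hdac6 and Hdac8 are X-linked, and 1 TCKO library differed from the rest in Xist. X-linked genes of the other lists, such as Rbbp7 below, share this limit.

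No sirtuin and no acetyltransferase passed the test in the main fit or with the replicate block. The 7 sirtuins, NAD-dependent deacylases, had log2 differences from -0.12 for Sirt4 to 0.17 for Sirt1, and none had libraries that separated the genotypes. Sirt2 was at 65.9, 62.6 and 61.1 CPM in WT and at 63.8, 58.5 and 62.0 CPM in TCKO, a log2 difference of -0.04 (95% interval -0.21 to 0.13). The widest sirtuin interval was that of the lowly expressed mitochondrial Sirt5, from -0.57 to 0.63, so a change below about this size was not detectable there. The 9 tested acetyltransferase genes ranged from -0.24 for Kat8, the H4 lysine 16 enzyme, to 0.39 for the pseudogene Kat2b-ps, which had 5 to 15 counts per library and whose reads may be shared with its parent gene. Kat2a was at 66.0, 67.5 and 80.4 CPM in WT and at 87.7, 76.4 and 84.1 CPM in TCKO, and the genotypes overlapped (log2 0.22, 95% interval -0.01 to 0.45).

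Of 15 pairs of closely related enzymes, the RPKM ratio did not overlap between genotypes in 4: Ezh2 to Ezh1, Hdac5 to Hdac4, Kdm1b to Kdm1a and Kdm3b to Kdm3a. For scale, the levels of 38.3% of single tested genes did not overlap, and no share over other gene pairs was computed. The log2 ratio differed by 1.09, 0.69, -0.65 and -0.43. For Ezh2 to Ezh1, Hdac5 to Hdac4 and Kdm1b to Kdm1a, each gene alone separated the genotypes, in opposite directions. This fixes the non-overlap of their ratios, which therefore adds no further result. The sign was the same in replicates 1 and 2 as in replicate 3, which non-overlapping ratios make certain. No test was run on the ratios. The other 11 pairs overlapped; the smallest differences were 0.003 for Kmt2d to Kmt2c and 0.006 for Kat6b to Kat6a, and the log2 ratio of Hdac2 to Hdac1 differed by 0.10 in replicates 1 and 2 and by 1.08 in replicate 3.

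**Figure D4:**
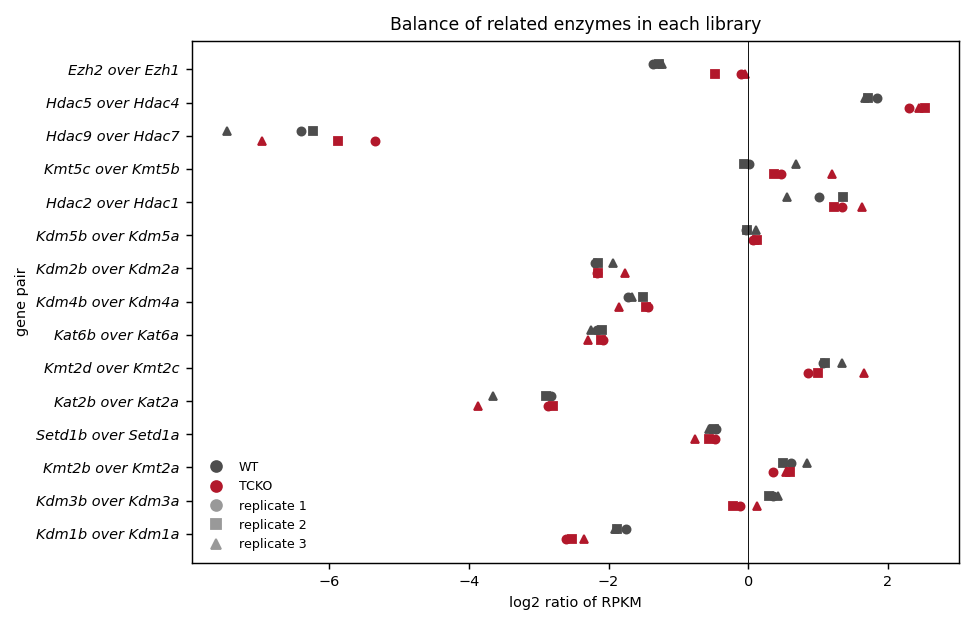
The log2 ratio of RPKM (horizontal axis) of 15 pairs of related enzymes in each library, with WT in grey, TCKO in red and 1 symbol per replicate number. The Ezh2 to Ezh1 ratio lies between -1.37 and -1.24 in WT and between -0.48 and -0.04 in TCKO.

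Proliferation genes also differed between the genotypes. 8 of 10 were higher in TCKO, where 9.07% of all tested genes were, and the median log2 difference of the 10 was 0.72. All 10 had every TCKO library above every WT library, where 19.4% of tested genes did. Their summed level was 279, 261 and 399 CPM in WT and 515, 494 and 508 CPM in TCKO, so that the genotypes were closer in replicate 3. The mitotic kinase Cdk1 (0.88), the checkpoint kinase Bub1 (1.1), Ccnb1 and Mki67 belong to this list, and Ezh2 and Kmt5a are known to vary with the cell cycle. The part of proliferation, and of the lower chondrocyte and haematopoietic markers, in the differences of the enzymes was not tested. On log2(CPM + 2) values, Ezh2 differed by 0.59 in replicates 1 and 2 and by 0.60 in replicate 3, and Kmt5a by 0.40 and 0.21, with 1 library of each genotype behind each replicate 3 value.

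Partners and relatives of the enzymes outside the name rule gave further context. Of 9 Polycomb repressive complex 2 (PRC2) subunits and partners other than Ezh1 and Ezh2, 2 were higher, none lower, and the median log2 difference was 0.33, where 9.07% of all tested genes were higher. These were the histone-binding subunits Rbbp4 (0.43 ± 0.09 SE, edgeR adjusted p = 0.0128) and Rbbp7 (0.40 ± 0.07, edgeR adjusted p = 0.00898), which also serve the deacetylase complexes of Hdac1 and Hdac2. With the replicate block 4 were higher, where 12.0% of tested genes were. The added genes Aebp2 and Mtf2 did not pass when the block was fitted on summed replicates 1 and 2 (edgeR adjusted p of 0.133 and 0.139), nor did Rbbp4 and Rbbp7 (0.0719 and 0.106). The core subunits Eed and Suz12 did not pass, at 0.00 and 0.33. Jarid2, a PRC2 cofactor, was the only one of 8 other JmjC genes that passed, at 0.50 (edgeR adjusted p = 0.0390). Of 18 Polycomb repressive complex 1 genes, Phc2 was higher and Ring1 lower, and of 10 shared subunits of the COMPASS complexes, which carry the Kmt2 and Setd1 enzymes, none passed in edgeR, while 1 (Men1) passed with the replicate block but not with the block on summed replicates (edgeR adjusted p = 0.211).

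The counts of these lists stand beside 9.07% of all tested genes called higher and 8.63% called lower, and none of the lists was tested against other genes. Of 24 tested histone methyltransferases with other names, 4 were higher and none lower. Nsd2, an H3 lysine 36 dimethyltransferase, had the largest difference of these (0.97 ± 0.07, edgeR adjusted p = 0.000224), at 44.6, 43.9 and 48.6 CPM in WT and 89.6, 91.9 and 87.7 CPM in TCKO. It was followed by Dot1l (0.56), Prmt1 (0.45) and Ehmt2 (0.25). Of 11 other acetyltransferases, Hat1, which acetylates newly made histone H4, was higher (0.66), and Ncoa3 (-0.61) and Clock (-0.40) were lower. Among 26 acetyltransferase complex subunits, Jade1 (1.22, edgeR adjusted p = 0.00204) and Jade3 (0.89) were higher and Jade2 (-0.75) lower, all scaffold proteins of the Kat7 complex, while Kat7 had a log2 difference of -0.03 (95% interval -0.21 to 0.16). Among 21 corepressor subunits, 3 were higher, including Sap30 (0.65), and 3 lower, including Sap18 (-0.70) and Tbl1xr1 (-0.56). Of 5 genes of DNA methylation, the maintenance factors Uhrf1 (0.77) and Dnmt1 (0.46) were higher. Of the partner and relative genes named here, Nsd2, Dot1l, Ncoa3, Clock, Jade1, Tbl1xr1 and Uhrf1 passed in all 6 fits that left out 1 library, and the other called ones lost the call in at least 1 of them. With the near-identical replicates 1 and 2 summed, Nsd2 still passed (edgeR adjusted p = 0.0243). Dot1l (0.113), Ncoa3 (0.112), Clock (0.147) and Tbl1xr1 (0.115) did not pass in that edgeR fit. The medians of these lists lay between -0.08 and 0.33 on the log2 scale, against 0.04 for the enzymes and 0.0002 for all tested genes.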

How the data were processed

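RNA-seq libraries from 3 WT and 3 TCKO cultures were compared, each assigned by its genotype label. The deposited values are raw read counts per gene, which the authors made by alignment with STAR 2.7.0e and counting with featureCounts 2.0.0 on GRCm38, per the labels. The library kit is directional, and the strand setting of the counting is not given in the sources used here. Symbols were added for 55144 of 55471 gene IDs (99.4%) from the reference tables. Counts were tested with edgeR 4.0.16 (R 4.3.3, TMM factors, filterByExpr, quasi-likelihood test), with Benjamini-Hochberg adjustment over 13826 genes, a threshold of 0.05 and 95% intervals from the same fit. CPM and RPKM used TMM-scaled library sizes, and within-replicate differences used log2(CPM + 2). Totals of 8019999 to 10177214 counts set the precision, and floors cover counting error only. Deviations of same-numbered WT and TCKO libraries correlated at 0.24, 0.25 and 0.37, so the replicate number, taken from the titles, was also fitted as a block. Crossed pairs of replicates 1 and 2 correlated as closely (0.26 and 0.22), and pairs of replicate 3 with either at -0.31 to -0.28, so that the numbers separate replicate 3 from the others and not replicate 1 from 2. Alternatives were other scalings and filters, DESeq2 1.42.0, a robust fit, autosomal genes, a replicate 3 term, replicates 1 and 2 summed, and leaving out each library.

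Named genes were all enzymes past the test, the highest RPKM of each class, those removed by the filter, both genes of pairs without overlap, and up to 4 called genes of each other list. The members, lists and pairs were chosen with earlier results of these data known. The other experiments of the study were not used here.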

Additional observations from a re-analysis of the deposited data

How the results depend on the processing

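Over 18 alternatives, the calls of single enzymes stayed on the same side of the threshold in 967 fits, were lost in 68 and were gained in 17, and no called direction turned. The count of 5 higher enzymes became 8 with the replicate block, 8 with a term for replicate 3, 0 with replicates 1 and 2 summed, 1 with these summed and blocked, and 2 to 6 with 1 library left out. The count of 4 lower enzymes became 0 without a low-count filter, 0 in DESeq2 with either filter and 0 with replicates 1 and 2 summed, with or without the block, and 0 to 4 with 1 library left out. At an unadjusted p under 0.05, these zero counts compare with 5 lower enzymes without the filter, 5 in DESeq2 with either filter, 3 with the summed replicates with or without the block, and 6 higher ones with the summed replicates. The unadjusted counts are given without a share over all tested genes and are not evidence of a difference. Enzymes higher over 2-fold numbered 0, but 1 (Hdac9) with the block or with a term for replicate 3, and 0 to 1 with 1 library left out; none was lower over 2-fold under any alternative. The median log2 difference of 0.04 ranged from 0.0060 without TCKO replicate 1 to 0.089 without WT replicate 1. The cause of these changes was not tested. Apart from the gains of Hdac5, Hdac7, Hdac9 and Setd4 and the loss of Kdm1b, the replicate block changed no call among the enzymes. The term for replicate 3 gained 5 calls over both directions and lost none. Depth limits the rarest ones: among tested enzymes, Hdac9, Hdac11, Setd4, Sirt3 and Kat2b-ps had 50 counts or fewer in each library.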
